A study of Mus musculus with 60 samples.

Results

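The genes described are 9 transcription factor genes of neural progenitors: Pax6, Olig1, Olig2, Nfia, Nfib, Hes1, Hes5, Gli3 and Sox9. They are 9 of the 27665 counted transcripts, those whose Ensembl transcript identifier belongs to one of these symbols in GENCODE M21. The rule itself uses no measured value. Nascent RNA was measured by EU-seq, in which 5-ethynyl uridine is offered to cells briefly and only RNA that took it up is captured and sequenced, so that values report recent transcription. All comparisons are of RAD21AID mouse cells (labelled GFP-AID-Rad21), and control mESCs of lines with CTCFAID, CTCF YF-AA or CTCF ΔN and ΔC alleles are used only to describe levels. In RAD21AID cells, RAD21, a core subunit of the cohesin ring that forms chromatin loops, carries an auxin-inducible degron and is degraded when indole-3-acetic acid (IAA) is added. Neuronal progenitor cells (NPCs) had been made from mouse embryonic stem cells (mESCs) by way of epiblast stem cells. All NPC libraries belong to 1 batch, with 2 controls, 2 libraries for each of the 1, 2 and 4 h treatments with 500 µM IAA, and 2 from cells given 10 µM A-485 for 1 h, which blocks the catalytic activity of the coactivators CBP and p300. An additional mESC experiment held 12 controls and 12 libraries taken 4 h into treatment with 500 µM IAA, and an initial one held 2 of each. In the additional experiment, replicate 1 of each group belongs to another batch than the other replicates. Controls carried the degron too, and the labels do not say that libraries came from separate cultures or differentiations, so that p-values measure the spread between these libraries, which may be technical.

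The 9 proteins act at different steps of neural development. HES1 and HES5 are basic helix-loop-helix repressors that Notch signalling switches on and that hold progenitors undifferentiated. GLI3 is the main repressor of the Hedgehog pathway when no ligand is present, and PAX6 is a paired-box factor of the dorsal telencephalon, eye and spinal cord. OLIG2 specifies motor neuron and oligodendrocyte progenitors, and its paralogue OLIG1 acts in oligodendrocyte maturation. NFIA, NFIB and SOX9 take part in the switch from making neurons to making glia.

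NPC libraries held 10755624 to 21351965 counts over whole genes and mESC libraries of the additional experiment 6966470 to 20879216, the shallowest NPC library being replicate 2 of 2 h IAA. The 2 h pair also differed most between replicates, with a chi-square of counts per degree of freedom of 10.1 where the lowest NPC pair had 1.89, and results that rest on 1 of these libraries are given without it too. The labelled cell types were checked with marker genes other than the 9. Of these, 12 of 12 mESC markers were lower in NPC than in mESC controls. Of 14 tested neural progenitor markers 12 were higher, with Sox2 lower by -2.86 on the log2 scale. Over all 17290 genes tested, 45.4% were higher and 7674 were lower. A test needed a mean count above 20 in 1 group or more. Within NPCs 7 of the 12 mESC markers had such counts, and within mESCs 9 of 15 neural progenitor markers. The others tested entered through the group where they are high, so that their calls were built into the filter. Fabp7, a radial glia marker, had 2935 and 3507 counts in the NPC controls and 0 in all 12 mESC controls. Astrocyte markers were also higher in NPCs, 6 of 6, of which 3 had counts enough for a test within mESCs. They summed to 347 to 361 TPM (transcripts scaled to gene length and library total) against 59 to 67.5 in mESCs. Of 7 oligodendrocyte lineage markers tested, 4 were higher and 2 lower, and the list summed to 177 to 178 TPM against 92.3 to 112. In control mESCs of the CTCF YF-AA line that sum was 215 to 236 TPM, above the NPCs. Of 10 neuron markers, 7 were higher and 3 lower, while their sum was 93.1 to 95.6 TPM in NPCs and 138 to 163 in mESCs. Rad21 RNA does not report on loss of the protein, so the degron was not checked by these data.

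The genes fall into 2 kinds by structure, which matters because counts cover the whole gene body, exons and introns, of 1 transcript per gene. In mm10, Olig1 (chr16:91269772-91271933), Olig2 (chr16:91225457-91228677), Hes1 (chr16:30065340-30067796), Hes5 (chr4:154960923-154962371) and Sox9 (chr11:112782224-112787760) are short, from 1.45 to 5.54 kb. Pax6 (chr2:105668900-105697364) spans 28.5 kb. Nfia (chr4:97777608-98118871), Gli3 (chr13:15463980-15730026) and Nfib (chr4:82290173-82505770, the only member on the minus strand) span 341, 266 and 216 kb, of which exons make up 2.79, 3.07 and 4.23%, so their counts came mostly from introns. In the 1 h IAA and A-485 libraries only the first 90 kb of each gene had been counted, and the controls exist with and without this limit. That window held 31.3 and 32.9% of the Nfia counts in the controls, 31.6 and 31% of the Gli3 counts and 40 and 40.9% of the Nfib counts. Whether counting used strand is not given in the sources used here. Gm20421 overlaps 52.2% of Hes5 on the opposite strand, Gm15966 7.26% of Olig1 and Pax6os1 5.03% of Pax6, and reads of these partners could not be told apart from those of the members.

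RefSeq promoter sequences (GRCm38.p6, 250 bases before to 50 after a start) were held for 5 of the 9 genes: Pax6 (2 starts), Olig2, Nfia, Hes5 and Gli3. The Nfia start lies 195665 bases and the second Pax6 start 13563 bases from the start of the counted transcript, so that these windows belong to other transcripts than those measured. Both strands were searched for GTGGGAA, which the Notch effector RBPJ binds, and for CACGTG and CACNAG, which HES proteins bind. Of 32851 promoters of this length, 6.38% held GTGGGAA, 7.15% CACGTG and 42.5% CACNAG. The Hes5 window held GTGGGAA on both strands, as it is read at position 168 and in reverse complement at position 25, and the second Pax6 window held CACNAG at position 115. The other windows held none of these letters. Hes5 and Gli3 are shown as the Notch and Hedgehog members of the set, each with the 250 bases before its start on the plus strand, at chr4:154960673-154960922 and chr13:15463473-15463722, with GTGGGAA and its reverse complement in capitals.
Hes5: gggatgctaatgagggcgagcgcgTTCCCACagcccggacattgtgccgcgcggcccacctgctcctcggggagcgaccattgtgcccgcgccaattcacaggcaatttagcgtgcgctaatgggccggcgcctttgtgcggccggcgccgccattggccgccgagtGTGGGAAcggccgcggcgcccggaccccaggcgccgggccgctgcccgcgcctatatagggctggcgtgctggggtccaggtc
Gli3: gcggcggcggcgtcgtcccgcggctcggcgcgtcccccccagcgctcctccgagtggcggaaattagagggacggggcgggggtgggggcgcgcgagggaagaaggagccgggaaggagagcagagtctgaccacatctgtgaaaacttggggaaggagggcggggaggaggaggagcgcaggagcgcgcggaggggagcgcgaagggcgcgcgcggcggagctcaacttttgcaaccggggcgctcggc
Both windows were rich in CpG, with an observed over expected ratio of 1.04 for Hes5 and 1.12 for Gli3 against a median of 0.384 over all promoters.

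In untreated NPCs the 9 genes were transcribed at levels that spanned from about those of Sox9 and Hes1 down to those of Pax6 and Hes5. Levels are in TPM over the counted gene body, which scales for length but not for the share of exons. Exons make up 74.7% of Sox9, 59.7% of Hes1, 78.5% of Olig2 and 100% of Olig1. They make up 2.79 to 4.23% of the 3 long genes, 87.9% of Hes5 and 9.14% of Pax6. Whether this share has a part in the order below was not tested. Sox9 stood at 303 ± 13.4 TPM (SD, n = 2) and Hes1 at 268 ± 18.3. The OLIG genes followed, Olig2 at 202 ± 10.8 and Olig1 at 200 ± 5.21, and their libraries overlapped, so that this pair cannot be ordered. Next came Nfib at 96.8 ± 0.525, Nfia at 67.9 ± 0.0706 and Gli3 at 64.2 ± 0.768. Hes5 at 9.41 ± 7.78 and Pax6 at 6.92 ± 0.516 were the lowest and overlapped each other, and the Hes5 value rests on 6 counts in control replicate 1 and 25 in replicate 2.

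**Figure D1:**
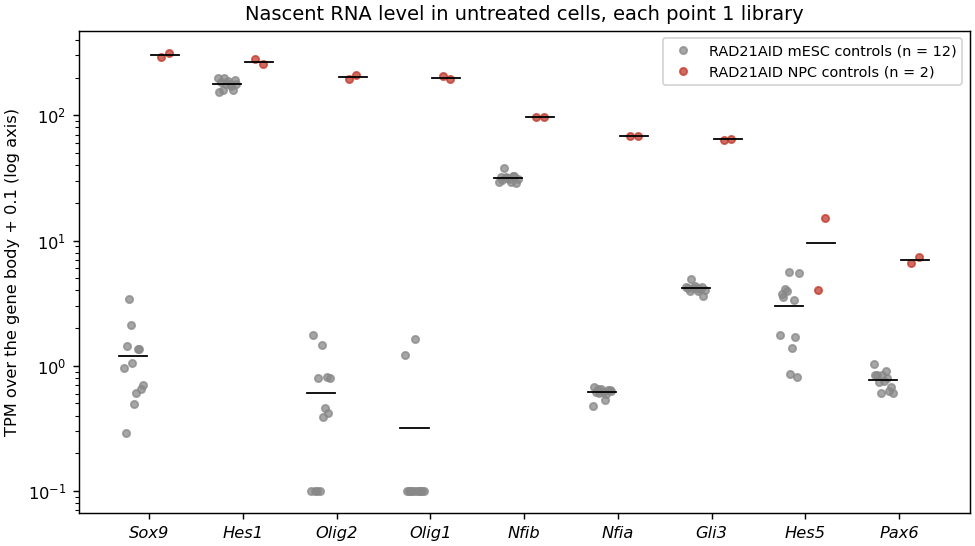
Nascent RNA level of each gene in untreated RAD21AID cells, as TPM over the gene body plus 0.1 on a log axis, with 1 point per library (2 NPC controls in red, 12 mESC controls in grey) and a line at each mean. Only Hes1, Nfib and Gli3 lie above 4 TPM on average in mESCs, and only for Hes5 do NPC and mESC libraries overlap.

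Compared with mESCs, every gene of the set that could be tested stood higher in NPCs. The differences ran from 1.54-fold for Hes1 to pooled ratios over 200 for the OLIG genes and Sox9. Hes5 was below the count filter. Genes with a mean count above 20 in either group were tested with edgeR's quasi-likelihood test and Benjamini-Hochberg adjustment over all genes tested, and a gene passed with an adjusted p under 0.05. Fold changes had the median of expressed genes subtracted. Of the 8 genes tested, 8 were higher and 7 were higher by at least 2-fold, where 45.4% of all 17290 tested genes were higher and 26.8% were higher by at least 2-fold. Olig1, Olig2, Sox9 and Pax6 entered the test through their NPC counts alone, so that their presence among the genes called was built into the filter. NPC libraries belong to another batch than the mESC libraries, so that cell type and batch cannot be told apart in this comparison.

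The genes near silent in mESCs are best read from their counts. Olig1 had 467 and 491 counts in the NPC controls, whereas 10 of the 12 mESC controls had 0 and the 12 together held 4. This corresponds to a ratio of pooled counts, scaled to library totals, of 1113 with an exact Poisson 95% interval of 433 to 4094, which covers counting error only. Olig2 had 663 and 780 counts against 0 to 5 in mESCs, a pooled ratio of 373 (235 to 631). Sox9 had 1726 and 2004 counts against 1 to 19, a pooled ratio of 259 (203 to 335). No mESC library of these 3 genes came near the NPC libraries.

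Nfia, Gli3 and Pax6 had measurable but low levels in mESCs. Nfia had 24599 and 26794 counts in NPC controls and 54 to 211 in mESC controls (median 160.5), and was higher in NPCs by 7.06 ± 0.03 (SE) on the log2 scale, or 133-fold. Gli3 had 17954 and 19919 counts against 462 to 1316 (median 962.5) and was higher by 4.01 ± 0.03, or 16.1-fold. Pax6, with 198 and 240 counts against 11 to 25 (median 17), was higher by 3.39 ± 0.14, or 10.5-fold. NPC and mESC libraries did not overlap for any of the 3.

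Nfib and Hes1 were already transcribed in mESCs. Nfib ran from 28.6 to 37.5 TPM there (median 31.3) and at 96.5 and 97.2 TPM in NPC controls, a difference of 1.65 ± 0.04, or 3.14-fold. Hes1 ran from 154 to 200 TPM in mESCs (median 179) and at 255 to 281 in NPCs, higher by 0.62 ± 0.07, or 1.54-fold (adjusted p = 2.17e-09). Both genes were thus higher in each NPC library than in any of the 12 mESC libraries. The initial mESC controls gave other sizes for several genes: with them in place of the 12, Hes1 was higher by 1.53, Gli3 by 2.83, Nfia by 6.07 and Sox9 by 10.68 on the log2 scale, and no call of a tested gene changed. Hes5 was below the filter, with 3.9 and 14.9 TPM in NPCs against 0.709 to 5.5 in mESCs, and its groups overlapped. Without a filter it was higher in NPCs by 1.67 (adjusted p = 0.000827). Its ratio of pooled counts was 3.07 (1.88 to 4.93), from 31 NPC counts.

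Controls of the other mESC lines of the series gave a further description of the stem cell state, with 2 libraries each. Mean Hes1 levels lay between 174 ± 9.28 TPM (SD, n = 2) in cells with CTCF ΔN and ΔC alleles and 274 ± 42 TPM in the CTCF YF-AA line, which is the range of the NPC controls. Nfib lay between 18.8 and 35.7 TPM, Gli3 between 2.84 and 7.43, and Nfia between 0.475 and 2. Olig2 had at most 1 count in any of these libraries and Olig1 at most 3. Among the neural genes outside the set, 52 of 61 tested transcription factors on a list of neural regulators were higher in NPCs than in mESCs and 7 were lower. Over all 17290 genes tested, 45.4% were higher and 7674 were lower. Only 37 genes of the list had counts enough for a test within mESCs, so that others entered through their NPC counts alone. For those, a call as higher was built into the filter.

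RAD21 loss changed the genes by less than 2-fold, Hes5 at 4 h apart, and in different directions. The time courses follow by gene group, with values in CPM (counts scaled to the library total) over the first 90 kb for 1 h and over whole genes for 2 and 4 h, each against the same 2 control libraries counted in the same way. The 3 time points share these controls and are not independent of each other. Of the genes tested, 2 of 8 were higher at 1 h (8.34% of all genes were), 3 of 8 at 2 h (5.35%) and 4 of 9 at 4 h (18.4%). The 4 h count includes Hes5, which entered the test through its treated libraries alone, so that it could be counted only as higher. None passed as lower at 1 or 2 h, and 3 of 9 did at 4 h, when 21.1% of all genes were lower. These counts of members are small, and their difference from the shares over all genes was not tested.

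Hes1 showed the largest change of the tested members at 1 h. Its level was 48.8 and 42.8 CPM in the controls and 87.1 and 86.9 CPM after 1 h, so that both treated libraries stood well above both controls and close to each other. The increase was 0.91 ± 0.06 on the log2 scale, or 1.88-fold (adjusted p = 9.81e-10). Over whole genes the controls were at 39.7 and 34.9 CPM, the 2 h libraries at 44.4 and 50 and the 4 h libraries at 48.3 and 45.8, again without overlap. Hes1 was higher by 0.29 ± 0.09 at 2 h (adjusted p = 0.035) and by 0.30 ± 0.07 at 4 h (adjusted p = 0.00016). The 2 h call was lost without control replicate 2 (0.20, adjusted p = 0.334), with DESeq2 and when the median was subtracted before the test.

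Hes5 stayed at a handful of reads. Its counts were 6 and 25 in the controls and 16 and 23 after 1 h. The 2 h libraries had 19 and 15 and those of 4 h 30 and 37, and only at 4 h did both treated libraries exceed both controls. It entered the test at 4 h alone, through its treated libraries, with an increase of 1.20 ± 0.39 (adjusted p = 0.0113). Without control replicate 1 the change was 0.60 (adjusted p = 0.218), without 4 h replicate 2 it was 0.98 (adjusted p = 0.0794), and DESeq2 gave an adjusted p of 0.0985.

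The OLIG genes lie 44.3 kb apart on chromosome 16. Olig1 was at 31.1 and 29 CPM in the controls and at 40.1 and 31.7 CPM after 1 h, a difference of 0.23 ± 0.10 that did not pass (adjusted p = 0.0716) but did without 1 h replicate 2 (0.39, adjusted p = 0.00116). Over whole genes the controls were at 25.3 and 23.7 CPM, the 2 h libraries at 34.1 and 43.2 and those of 4 h at 32.4 and 29.4. Every treated library was above both controls. Olig1 rose by 0.60 ± 0.11 at 2 h, or 1.52-fold (adjusted p = 0.00319), and by 0.31 ± 0.08 at 4 h (adjusted p = 0.000895). Olig2 was at 44.2 and 46.1 CPM in the controls and 50.4 and 50.9 after 1 h (0.15 ± 0.07, adjusted p = 0.0775). Over whole genes the controls were at 36 and 37.6 CPM, the 2 h libraries at 46.6 and 52.8 and those of 4 h at 36.3 and 38.1. It rose at 2 h by 0.38 ± 0.09 (adjusted p = 0.00629), while the 4 h libraries overlapped the controls with a difference of -0.02 ± 0.07 (adjusted p = 0.91). Of the 8 members tested at 2 h, the OLIG genes and Hes1 passed as higher.

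The 4 h libraries were also tested directly against the 2 h libraries, where 2.85% of all genes passed. Olig2 was the only 1 of 9 members that did, lower at 4 h by -0.40 ± 0.09 (adjusted p = 0.0274). Without 4 h replicate 1 or 2 this adjusted p was 0.198 or 0.0586. Olig1 differed by -0.29 ± 0.11 (adjusted p = 0.208) and Hes1 by 0.02 ± 0.08 (adjusted p = 0.994). The 2 h replicates decided further calls: without 2 h replicate 1, Olig1 was lower at 4 h by -0.47, and without replicate 2, Nfia, Nfib, Gli3 and Sox9 were lower by -0.35, -0.27, -0.24 and -0.17.

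The long genes behaved differently. Nfia was at 512 and 520 CPM over its first 90 kb in the controls and at 619 and 583 after 1 h, a small increase of 0.20 ± 0.04 (adjusted p = 0.000425) with no overlap. Over the whole gene the controls were at 1335 and 1291 CPM, the 2 h libraries at 1493 and 1220 and those of 4 h at 1138 and 1190. The 2 h libraries lay on either side of the controls (0.01 ± 0.10, and 0.15 with an adjusted p of 0.000478 without 2 h replicate 2), and at 4 h both were below them, with a decrease of -0.21 ± 0.04 (adjusted p = 0.000618). Nfib moved less, from 588 and 586 CPM to 628 and 607 at 1 h (0.06 ± 0.04, adjusted p = 0.17). Over the whole gene the controls were at 1197 and 1168 CPM, the 2 h libraries at 1304 and 1080 and those of 4 h at 1047 and 1110. Nfib was lower at 4 h by -0.17 ± 0.04 (adjusted p = 0.00683). At 2 h it passed as lower without replicate 1 (-0.18) and as higher without replicate 2 (0.11). The 4 h call was lost without control replicate 1 (adjusted p = 0.1) or 4 h replicate 1 (adjusted p = 0.077).

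Gli3, the third long gene, did not differ detectably at 1 h, with 378 and 365 CPM in the controls and 372 and 385 CPM after IAA (0.01 ± 0.04). Over the whole gene the controls were at 974 and 960 CPM, the 2 h libraries at 930 and 751 and those of 4 h at 762 and 806. All 4 later libraries were below both controls, but the 2 h pair was wide apart and did not pass (-0.24 ± 0.10, adjusted p = 0.221) except without 2 h replicate 1 (-0.41, adjusted p = 7.46e-08), and at 4 h the decrease was -0.33 ± 0.04 (adjusted p = 1.36e-07). Long genes as a class were lower at 2 and 4 h: expressed genes over 240 kb had medians of -0.30 (n = 72) and -0.27 (n = 70). When the trend along gene length was removed, the 4 h values became 0.18 for Nfia, 0.13 for Nfib and 0.00 for Gli3. Whether gene length has a part in their decrease was not tested.

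Pax6 and Sox9 stayed near their control levels. Pax6 was at 13.2 and 14.2 CPM in the controls and at 16.3 and 15.8 after 1 h. In the whole-gene columns the controls were at 10.7 and 11.6 CPM, both 2 h libraries at 13.3 and those of 4 h at 12.9 and 14.5. All 6 treated libraries were above the controls, but the difference passed only at 4 h, with 0.26 ± 0.12 (adjusted p = 0.0469), and this call was lost in 6 of 10 alternatives. Sox9 was at 115 and 118 CPM in the controls and 129 and 123 after 1 h. In the whole-gene columns the controls were at 93.7 and 96.6 CPM, the 2 h libraries at 104 and 96.7 and those of 4 h at 96.3 and 87.8, on either side of the controls. Its differences of 0.09 ± 0.05, 0.04 ± 0.07 and -0.08 ± 0.05 passed at none of the 3 times (adjusted p = 0.0863, 0.446 and 0.474).

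**Figure D2:**
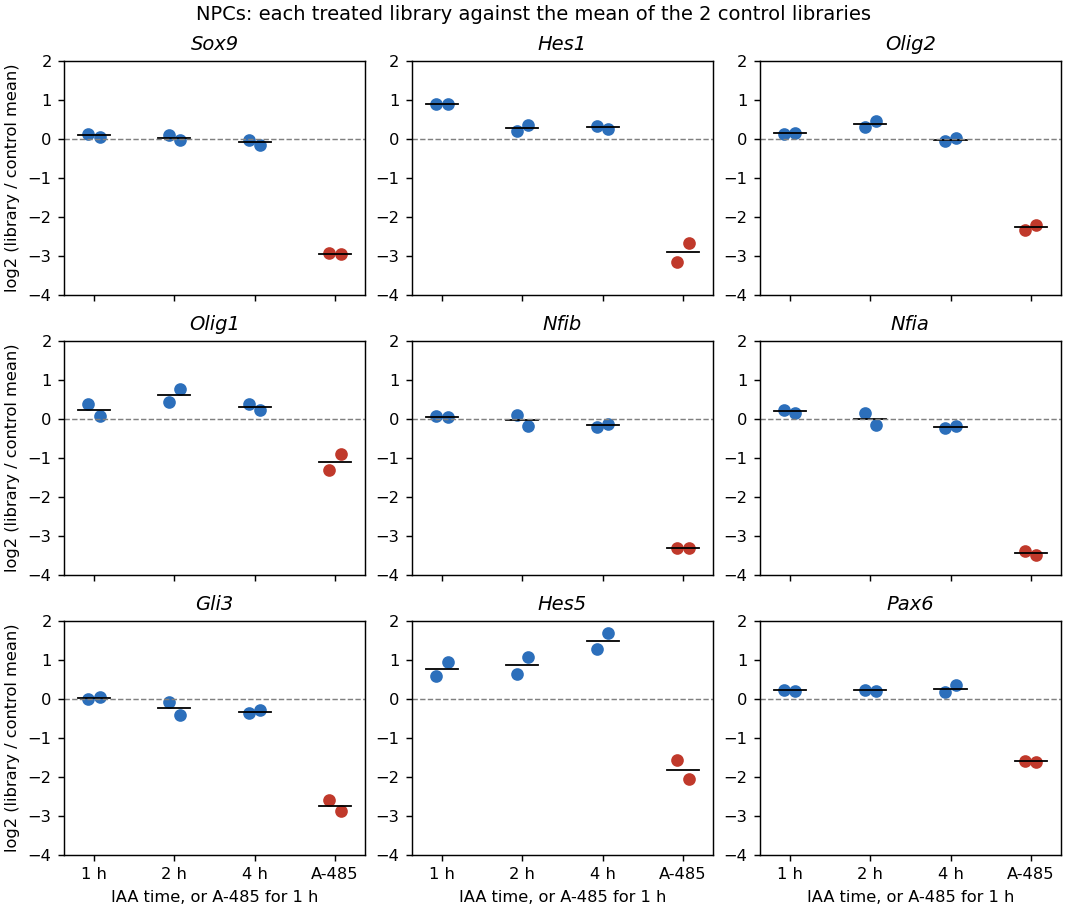
Each treated NPC library as log2 of its level over the mean of the 2 control libraries, 1 panel per gene, after 1, 2 and 4 h of IAA (blue) and after 1 h of A-485 (red), with a line at each mean and the control mean at 0. Hes1 stands at 0.91 in both 1 h libraries and between 0.22 and 0.37 later, the 2 h points of Nfia, Nfib and Gli3 are spread, and every A-485 point lies below -0.9.

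Summed marker levels of other cell types moved during the time course. Over all genes tested at 4 h, 18.4% were higher and 21.1% lower. Astrocyte markers summed to between 347 and 361 TPM in the controls and to at most 232 TPM at 4 h, and 2 of 6 tested passed as lower. Oligodendrocyte lineage markers summed to 177 to 178 TPM in the controls and 209 to 214 TPM at 4 h, with 1 of 7 higher and none lower. Neural progenitor markers summed to 2849 to 3068 and 3277 to 3353 TPM, with 5 of 14 higher and 6 lower. Neuron markers summed to 93.1 to 95.6 and 100 to 101 TPM, with 6 of 10 lower and 2 higher, and 3 of 7 mESC markers were lower. Their part in the results of the members was not tested. In bulk libraries, fewer cells of a type and less RNA per cell cannot be told apart.

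Genes of the pathways that the members belong to were called in both directions after RAD21 loss. Of the Notch genes, 28 on a fixed list, 5 of 25 tested were higher and 2 lower at 1 h, 2 higher and 5 lower at 2 h, and 8 of 26 higher and 6 lower at 4 h. Over all genes, 8.34% were higher at 1 h and 5.35% at 2 h. Lower were 1173 of 15860 genes at 1 h and 1473 of 15995 at 2 h. At 4 h, 18.4% of all genes were higher and 21.1% lower. Differences from these shares were not tested. At 4 h the median of the list was -0.03 against -0.02 over all genes. Its targets besides Hes1 and Hes5 were split: Heyl was higher by 0.53 ± 0.17 at 1 h and 0.70 ± 0.16 at 4 h, Nrarp, a feedback inhibitor of Notch, was higher by 0.40 ± 0.17 at 4 h, and Hey2 was lower by -1.18 ± 0.24 at 4 h. The receptor gene Notch2 was lower at all 3 times, by -0.19 ± 0.04, -0.59 ± 0.07 and -0.70 ± 0.04, and the coactivator gene Maml2 by -0.46 ± 0.08, -1.02 ± 0.08 and -1.37 ± 0.05. The ligand gene Dll1 was higher by 0.49 ± 0.08 at 4 h.

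Of 15 Hedgehog genes, 13 were tested, with 5 higher and 2 lower at 1 h, when 8.34% of all genes were higher. At 4 h, 3 were higher and 4 lower, near the shares over all genes. The difference from all genes at 1 h was not tested. Ptch1, which encodes the receptor and is itself a target of the pathway, was higher by 0.87 ± 0.04 at 1 h, 0.80 ± 0.07 at 2 h and 0.48 ± 0.04 at 4 h. The ligand gene Shh was higher by 0.44 ± 0.06 at 1 h and 0.28 ± 0.06 at 4 h. The genes of the co-receptors Cdon and Boc and of the ligand-binding antagonist Hhip were lower at 4 h, by -0.79 ± 0.06, -1.38 ± 0.04 and -2.24 ± 0.11. Gli2, the activator paralogue of Gli3, was higher by 0.17 ± 0.04 at 4 h, and Gli1 differed by 0.03 ± 0.07, which did not pass.

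Relatives of the members were also split at 4 h. In the NFI family, Nfix was lower by -0.46 ± 0.04 along with Nfia and Nfib, and Nfic was higher by 0.10 ± 0.05. Among 60 other neural transcription factors tested, 20 were higher and 3 lower at 1 h, with a median of 0.12 against -0.03 over all genes. Over all 15860 genes tested at 1 h, 1323 (8.34%) were higher and 1173 lower. At 4 h, 21 of the 60 were higher and 18 lower, where 18.4% of all genes were higher and 21.1% lower. The 4 h median was 0.02 against -0.02 over all genes. Differences from the shares over all genes were not tested. Zeb1 was lower by -1.63 ± 0.04 at 4 h, and Irx3 and Irx5 had the largest increases, 1.01 ± 0.19 and 0.95 ± 0.13. Sox21, Zic2 and Sox2 were higher by 0.74 ± 0.08, 0.46 ± 0.05 and 0.48 ± 0.07. Hmga2 and Npas3 were lower by -0.56 ± 0.04 and -0.51 ± 0.04. No member fell as far as Zeb1, Hhip or Boc.

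The nearest tested genes on either side of each member were compared, with distances between the starts of the counted transcripts. Inhba, 548 kb from Gli3, was lower by -0.33 ± 0.06, -1.07 ± 0.08 and -2.56 ± 0.08 at 1, 2 and 4 h, while Gli3 stood at 0.01, -0.24 and -0.33. Kcnj2, 1716 kb from Sox9, differed by 0.10 ± 0.19 at 1 h and was lower by -1.37 ± 0.27 at 2 h and by more at 4 h (adjusted p = 2.68e-07), while Sox9 passed at no time. On the other side of Sox9, Slc39a11, 784 kb away, was lower by -0.44 ± 0.05 at 4 h. E130114P18Rik, which starts 0.44 kb from Nfia on the opposite strand, was higher by 0.39 ± 0.06 at 1 h, as was Nfia. The neighbours of Hes1, Opa1 at 486 kb and Lrrc15 at 218 kb, differed at 1 h by -0.06 ± 0.04 and 0.18 ± 0.31 and did not pass. At 4 h Lrrc15 was higher by 0.95 ± 0.27 (adjusted p = 0.00447), as was Hes1, and Opa1 differed by -0.13 ± 0.04 (adjusted p = 0.0747).

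Inhibition of CBP/p300 with A-485 for 1 h lowered every member that could be tested. All 8 were lower by at least 2-fold, where 35.3% of all 16009 tested genes were lower and 20.2% were lower by at least 2-fold. Nfia went from 512 and 520 CPM in the controls to 53.5 and 50.6, a decrease of -3.46 ± 0.07 on the log2 scale, or 11-fold (adjusted p = 1.73e-15). Nfib went from 588 and 586 CPM to 63.7 and 64.7, a decrease of -3.34 ± 0.07, or 10.1-fold. The NFI genes thus had the largest decreases among the members as counted, but not with the trend along gene length removed, when Nfia stood at -2.32 and Nfib at -2.44 against -2.95 for Sox9 and -2.89 for Hes1.

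Sox9, Hes1 and Gli3 followed. Sox9 went from 115 and 118 CPM to 16.5 and 16.7 (-2.96 ± 0.08, 7.76-fold), and Hes1 from 48.8 and 42.8 CPM to 5.55 and 7.88 (-2.91 ± 0.13, 7.49-fold). Gli3 went from 378 and 365 CPM to 65.7 and 55.2 (-2.77 ± 0.08, 6.8-fold). Over all tested genes the lowest 5% began at -2.73, which Gli3 passed by a small margin and not with the length trend removed (-1.76).

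The OLIG genes and Pax6 fell less. Olig2 went from 44.2 and 46.1 CPM to 9.69 and 10.8 (-2.28 ± 0.10, 4.86-fold). Pax6 went from 13.2 and 14.2 CPM to 4.84 and 4.87 (-1.64 ± 0.15, 3.12-fold), and Olig1 from 31.1 and 29 CPM to 13 and 17.6 (-1.11 ± 0.12, 2.17-fold). Olig1 was thus close to the 2-fold line, and the alternatives gave it -1.33 to -0.93, the latter short of 2-fold. Hes5 was below the filter with 6 and 25 counts in the controls and 4 and 3 after A-485, and without a filter its decrease was -2.24 (adjusted p = 0.0072). Control and A-485 libraries overlapped for none of the 9 genes.

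TMM scaling alone moved the median of expressed genes by 0.12 in this comparison, and the values above are relative to that median. Neural progenitor markers summed to 2861 to 3084 TPM in the controls and 1335 to 1686 TPM after A-485. Of 14 tested, 13 were lower, where 35.3% of all genes were. Astrocyte markers summed to 347 to 361 and 133 to 150 TPM, and oligodendrocyte lineage markers to 178 to 179 and 90.7 to 106 TPM. Of 7 mESC markers tested, 4 were lower and 1 higher (median -1.24), while their sum went from 252 to 274 TPM to 369 to 391 TPM. Their part in the results of the members was not tested.

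**Figure D3:**
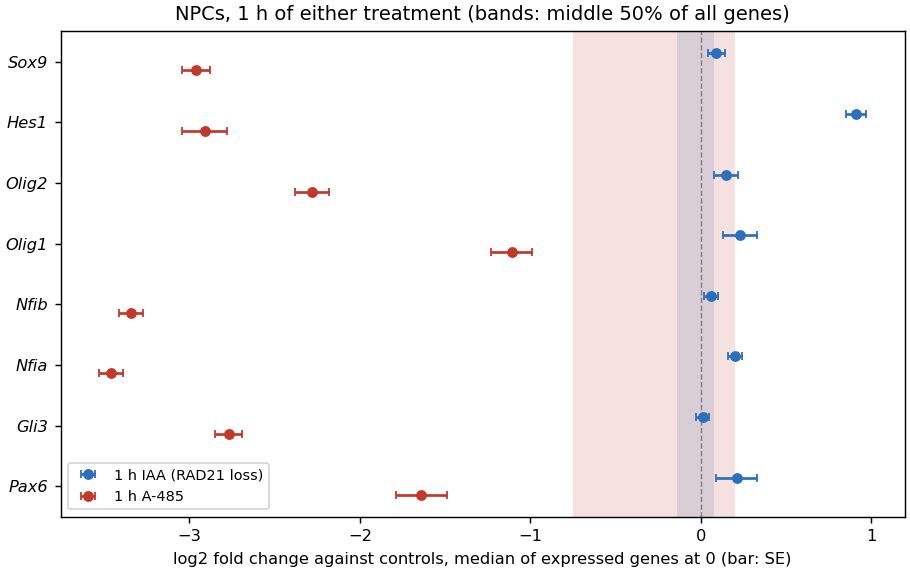
Fitted log2 fold change in NPCs of 8 genes after 1 h of IAA (blue) and 1 h of A-485 (red), each against the same 2 controls with the median of expressed genes at 0. Bars are SE and bands hold the middle 50% of all tested genes in each comparison (-0.14 to 0.08 for IAA, -0.75 to 0.20 for A-485). All A-485 values lie left of their band, between -3.46 and -1.11, and Hes1 is the only IAA value beyond 0.3.

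The 1 h A-485 and 1 h IAA libraries share their controls, so they were tested against each other directly. Of the 8 members tested, 8 were lower after A-485 than after RAD21 loss, as were 34.5% of all genes. The differences were -3.81 for Hes1 (14.1-fold), -3.65 for Nfia, -3.39 for Nfib, -3.05 for Sox9, -2.77 for Gli3, -2.43 for Olig2, -1.85 for Pax6 and -1.35 for Olig1, the last with an adjusted p of 8.31e-06. Hes1 was the member with opposite and passing changes, 0.91 after IAA and -2.91 after A-485. Nfia was the other such member, at 0.20 and -3.46.

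The wider gene groups were lowered by A-485 too. Over all 16009 genes tested, 35.3% were lower and 20.2% were lower by at least 2-fold. Differences of the groups from these shares were not tested. Of 60 other neural transcription factors tested, 59 were lower, 54 of them by at least 2-fold, and none was higher, with a median of -2.41 against -0.11 over all genes. Zeb2 (-4.88 ± 0.09), Hmga2 (-4.60 ± 0.07), Rfx4 (-4.34 ± 0.10) and Npas3 (-4.17 ± 0.11) fell furthest, beyond any member. Of 25 Notch genes tested, 19 were lower and 2 higher, with a median of -1.68. All 4 receptor genes and all 5 tested targets were lower, among them Notch1 (-2.85 ± 0.08) and Heyl (-2.86 ± 0.29), and of 8 modifiers 4 were lower and 2 higher. Of 13 Hedgehog genes, 10 were lower and 1 higher. Boc (-4.21 ± 0.08), Hhip (-3.89 ± 0.15) and Ptch1 (-3.87 ± 0.07) fell most among them, and Smo, the signal transducer, differed by -0.01 ± 0.10 (adjusted p = 0.317).

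Family members fell alongside those of the set, in a comparison where 35.3% of all genes were lower. All 4 NFI genes were lower, Nfix by -1.63 ± 0.06 and Nfic by -1.08 ± 0.09, both less than Nfia and Nfib. All 6 tested HES and HEY genes, all 6 GLI and ZIC genes, all 3 SOX E genes and all 4 tested PAX genes were lower. Near the members, Inhba by Gli3 (-2.58 ± 0.08), Kcnj2 by Sox9 (-2.55 ± 0.29) and E130114P18Rik by Nfia (-1.87 ± 0.09) were lower. Pank4, 3.21 kb from Hes5, and Opa1, 486 kb from Hes1, stood at 0.14 ± 0.07 and 0.12 ± 0.06 with the median of expressed genes subtracted. Both passed as higher in the edgeR test (adjusted p = 0.00196 and 0.00177), which was made before the median was subtracted. Whereas Olig1 fell by -1.11, Ifnar2, 103 kb away on its other side from Olig2, fell by -0.58 ± 0.07.

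In mESCs, 4 h of RAD21 loss was measured in 12 against 12 libraries, and only 4 members had counts enough to test. In this deeper experiment, whose batches were not entered in the fit, 58.3% of all genes passed. Gli3 ran from 55 to 71.1 CPM in the controls (median 62.3) and from 46.3 to 56.5 CPM after IAA (median 52.8), and was lower by -0.24 ± 0.03 (adjusted p = 1.3e-09). Hes1 ran from 21.9 to 29.4 CPM (median 25.9) in the controls and from 19.3 to 25.8 (median 20.7) after IAA, lower by -0.23 ± 0.05 (adjusted p = 8.39e-06). Nfib was higher by 0.10 ± 0.03 (adjusted p = 0.00274), with a range of 366 to 450 CPM in the controls and 373 to 451 after IAA. Nfia differed by 0.11 ± 0.06 (adjusted p = 0.114), with medians of 10.4 and 10.8 CPM. Groups overlapped for all 4 genes, so that these differences are of means over many libraries. In the initial experiment of 2 against 2 libraries, whose treatment text in the labels describes another drug than the titles do, none of the 4 passed and Hes1 stood at 0.25 (adjusted p = 0.403).

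The difference of the 4 h effect between NPCs and mESCs was tested with an interaction term, for which 33.4% of all genes passed. It passed for 3 of 9 members. Hes1 had a more positive effect in NPCs by 0.55 ± 0.10 (adjusted p = 3.28e-06), higher in NPCs and lower in mESCs. Nfia and Nfib had a more negative effect in NPCs, by -0.31 ± 0.07 (adjusted p = 0.000987) and -0.25 ± 0.07 (adjusted p = 0.00409). Gli3 was lower in both cell types and its effects differed by -0.08 ± 0.06, which did not pass (adjusted p = 0.478). For Pax6, Olig1, Olig2, Hes5 and Sox9 the mESC counts were too low, with standard errors of 0.22 to 0.97, to show a difference of the size seen in NPCs. With the initial mESC experiment in place of the 12, the Hes1 difference was 0.08 (adjusted p = 0.807) and that of Nfia -0.27 (adjusted p = 0.191), while Nfib passed at -0.34 (adjusted p = 0.00283). Without 4 h NPC replicate 1, the adjusted p of Nfib was 0.0674.

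**Figure D4:**
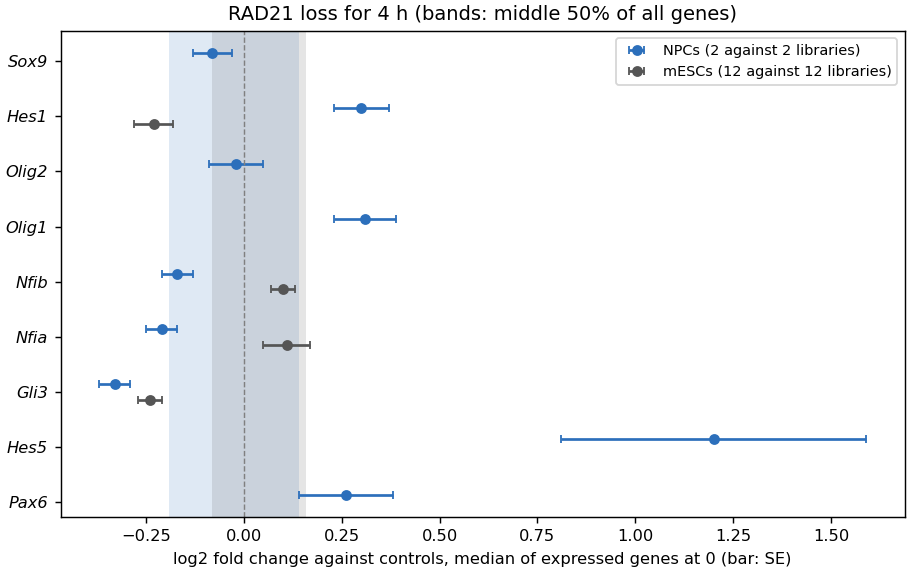
Fitted log2 fold change after 4 h of IAA in NPCs (blue, 2 against 2 libraries, 9 genes) and in mESCs (grey, 12 against 12 libraries, the 4 genes with enough counts), with the median of expressed genes at 0. Bars are SE and bands hold the middle 50% of all genes (-0.19 to 0.14 in NPCs, -0.08 to 0.16 in mESCs). Hes1 lies on opposite sides of 0 in the cell types, at 0.30 and -0.23, and Gli3 on the same side, at -0.33 and -0.24.

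Across the 8 treated NPC libraries, each taken as log2 against the control mean, the genes most like each member among 9377 others were found by the root mean square difference of these values. For Nfia these were Gpc3 (0.07) and Nfib (0.10), and for Nfib Sema6a (0.09) and Nfia (0.10), so that the NFI pair was among each other's closest. For Sox9 they were Zfhx3 (0.10) and the Notch ligand gene Jag1 (0.11), for Gli3 Tle4 (0.11) and Adgrl2 (0.13), and for Olig2 Zic1 (0.13) and Tnrc18 (0.13). For Olig1 they were Peg10 (0.09) and Bcl9l (0.16), and for Pax6 Inka2 (0.10) and Zfp516 (0.10). Hes1 had no profile as near, with Dusp4 at 0.15 and Irf2bpl at 0.22, and Hes5, with its few counts, had Gclc at 0.42. The measure covers 8 libraries that share 2 controls and is dominated by the A-485 pair, so it is a description only.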

How the data were processed

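Nascent RNA was measured in 60 libraries, grouped by line, treatment, time and experiment as the sample labels give them. The values are counts, deposited without normalization. Reads had been mapped by the authors to mm10 (bwa meme) and, after removal of poorly mapped, rRNA and tRNA reads, counted with HTSeq over the gene body of 1 transcript per gene. The 1 h columns were limited to the first 90 kb, and controls counted in the same way were used with them: 24503 of 24504 genes up to 90 kb had equal counts in both control columns. The paper's methods also set a limit of 240 kb for 2 h treatments, based on the rate of elongation, but the 2 h columns showed none. Nfia (341 kb) and Gli3 (266 kb) exceed it, so that their 2 h values include the stretch beyond. Expressed genes over 480 kb had medians of -0.29 at 2 h and -0.21 at 4 h (n = 10 each).

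For each of 9 comparisons, the genes whose mean count exceeded 20 in 1 group or more were tested in R 4.3.3 with edgeR 4.0.16 (TMM, two-sided quasi-likelihood F test on the libraries of the comparison) and Benjamini-Hochberg adjustment over all genes tested. Log2 fold changes had the median over genes above 15 TPM subtracted. DESeq2 1.42.0, no filter, other centrings, a replicate block, libraries left out and removal of the length trend were alternatives. On data simulated for the 4 h NPC comparison (16148 genes), 98 of 100 2-fold and 100 of 100 4-fold changes were recovered, and 4 unchanged genes were called. Changes below 2-fold, the size seen after RAD21 loss in all members but Hes5 at 4 h, were not simulated.

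Members and gene lists were chosen with earlier results of these data known. Genes were named by rule: every member, up to 4 list genes with the largest changes, the 2 most similar profiles and the nearest tested neighbour on either side. Other list genes were named after their values were seen, as relatives or pathway partners of members. GENCODE M21 matched 27296 transcripts with and 159 without version and left 210 unmatched. Of 178 genes on the lists, 174 had a row. Same-numbered NPC libraries did not deviate together (correlations of -0.134 to 0.197), so the numbers were not used as pairs.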

Additional observations from a re-analysis of the deposited data

Results flagged for a closer look

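The change after 4 h of RAD21 loss differed between NPCs and mESCs, by a test of the difference itself (an interaction term), for 3 of 9 members, where 33.4% of all 17538 genes passed, so that the count is no result about the members. The NPC value minus the mESC value was 0.55 on the log2 scale for Hes1, -0.31 for Nfia and -0.25 for Nfib. Hes1 stood at 0.30 in NPCs and -0.23 in mESCs, Nfia at -0.21 and 0.11, and Nfib at -0.17 and 0.10. With the initial mESC experiment the values were 0.08, -0.27 and -0.34, and only that of Nfib passed. NPCs and mESCs belong to different batches, and batch and cell type cannot be told apart. No group of 4 to 10 libraries was present, so single libraries were not examined for outlying values.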

How the results depend on the processing

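Over 680 alternative values of members that could be tested, 634 kept their direction and side of the threshold, 21 were no longer past it, 20 newly passed it and 5 changed sign with either value past it. No call of a tested member changed under any alternative after A-485, between A-485 and 1 h IAA, or between NPCs and mESCs. Sign changes were those of Nfib at 2 h without 2 h IAA replicate 2 (0.11, range without single libraries -0.18 to 0.11), of Nfia (0.18), Nfib (0.13) and Gli3 (0.00) at 4 h with the length trend removed, and of Hes1 in the initial mESC experiment (0.25). Counts of genes past the threshold moved more. With DESeq2 they were 1110 in place of 2496 at 1 h and 4080 in place of 6383 at 4 h, and without a filter 1024 in place of 454 for 4 h against 2 h. With the initial mESC experiment they were 1310 in place of 9175 for mESCs and 2877 in place of 5853 for the interaction. Leaving out 1 library gave 1645 to 2276 at 1 h, 1163 to 4852 at 2 h (main 2328) and 247 to 2951 for 4 h against 2 h, where 2 h IAA replicates 1 and 2 left out gave 2951 and 1834 and 4 h IAA replicates 1 and 2 left out gave 247 and 285. The lowest at 1 h came without control replicate 1, and those at 2 h were 4852 without 2 h IAA replicate 1, 3642 without replicate 2, 1163 without control replicate 1 and 1359 without control replicate 2. Same-numbered mESC libraries did not consistently deviate together, since 12 mESC pairs correlated at -0.016 to 0.374 and 3 of 12 best with their own number. The numbers do match batch, as replicate 1 of either mESC group belongs to another batch than the rest. No batch term entered the main fit. The paper used matched control and treatment counts for these replicates. A replicate block gave 3679 genes at 2 h, 882 for 4 h against 2 h, 2230 at 1 h, 6213 at 4 h and 11156 in place of 10838 for A-485. The crossed pairing, added after seeing the data, gave 3496 at 1 h and 10817 in place of 10382 for A-485 against IAA. Subtracting the median before the test changed the split of lower and higher genes from 1173 and 1323 to 1589 and 1091 at 1 h, from 1473 and 855 to 1853 and 611 at 2 h, from 5648 and 5190 to 6572 and 3444 for A-485 and from 5475 and 4907 to 6124 and 3546 for A-485 against IAA. The causes of these differences were not tested. Depth limits Hes5 in all cells, and Olig1, Olig2, Sox9 and Pax6 in mESCs, where changes after IAA were not detectable.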

Other observations

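Among genes up to 90 kb, for which all columns count the same stretch, the later IAA libraries were tested directly against the 1 h libraries with edgeR, a comparison added after the values had been seen. Hes1 was lower at 2 h than at 1 h by -0.62 ± 0.08 on the log2 scale (adjusted p = 0.000985), where 1.4% of 13076 genes passed, and lower at 4 h by -0.61 ± 0.06 (adjusted p = 3.68e-09), where 19.2% of 13281 genes did. Sox9 was lower at 4 h than at 1 h by -0.18 ± 0.05 (adjusted p = 0.0104). Olig1 differed by 0.36 ± 0.13 at 2 h (adjusted p = 0.323), Olig2 by -0.17 ± 0.07 at 4 h (adjusted p = 0.0663) and Hes5 by 0.71 ± 0.32 at 4 h (adjusted p = 0.136), and Pax6 passed at neither time.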
